A study of Mus musculus with 4 samples.

Results

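The response to TNF was described in primary chondrocytes of Rela fl/fl mice, from 1 array of cells cultured with TNF and 1 array of cells cultured without it. Rela fl/fl mice carry the Rela allele flanked by loxP sites on both chromosomes. Without Cre recombinase the gene stays whole, and these cells served as the control genotype of the series. The cells came from 6-day-old mice on the C57BL/6J background, and the culture with 10 ng/ml TNF and the one without it each lasted 3 days. These are 2 of the 4 arrays of the series. The other two were made in the same manner from Prrx1-Cre; Rela fl/fl littermates, in which the Prrx1 promoter directs Cre to limb mesenchyme. Rela signal was not lower on them (34.0 without and 40.2 with TNF). Whether its probe lies within the deleted part was not examined, so this value does not check the labels. They are called the arrays labelled cKO and used only where named. How many mice stand behind an array is not given in the sources used here. All 37042 genes and unnamed transcripts on the arrays were compared, and the description follows the genes that rose or fell, by function.

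TNF is an inflammatory cytokine that acts through receptors on the cell surface. Receptor binding activates the IκB kinase complex, which marks IκB proteins for destruction and releases NF-κB dimers, among them those that hold Rela (p65), into the nucleus. Among the genes that NF-κB switches on are chemokines, acute-phase proteins, proteases, and its own inhibitors, which end the signal. Chondrocytes are the cells of cartilage, where they make type II collagen and aggrecan, and TNF is known for raising matrix-degrading enzymes and lowering matrix synthesis in them.

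With 1 array per condition no test was possible, no p-value was computed, and the spread between cultures was not measured. Signals are relative, with 1 standing for the 75th percentile of all transcript spots on the array in question. This percentile lay at 611 intensity units without TNF and 615 with TNF. Of the probes, 50.9% without TNF and 54.4% with TNF were well above background, as the scanner software calls it, and the lowest such signals were 0.0527 and 0.0372. Spots that were bright on a single array lay together in patches, which held 10.7% of the spots without TNF and 7.18% of those with TNF. A gene is said below to have risen or fallen when its log2 difference was at least 1 (2-fold), its probe was well above background on both arrays, and a spot outside patches showed it too. Among probes with 10 spots, the technical spread of a difference between the arrays was 0.14 on the log2 scale, and 0.28, or 2 such spreads, is used below as a mark for smaller differences. This spread grew as spots became dim. It was 0.08 for signals over 1, 0.16 for signals from 0.2 to 1, and 0.33 for signals under 0.2, where 2 spreads amount to 0.66. Counts by the mark of 0.28 include genes as dim as this. For signals over 1, 2 spreads amount to 0.16, so a bright gene counted as within 2 spreads can still exceed its own.

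The cells carried the markers of chondrocytes on both arrays. All 8 chondrocyte markers were well above background. The signal of Col2a1, the chain of type II collagen, was 597 without TNF and 610 with TNF, and that of Acan, the core protein of aggrecan, was 100 and 81.9. All 5 fibroblast markers were also well above background on both arrays. Among them, Col1a1 stood at 162 and 164 and Col3a1 at 92.7 and 113 (0.28), while Pdgfra differed by 0.75 and Thy1 by -0.69. The summed signals were 1560 without and 1490 with TNF for the chondrocyte markers and 262 and 285 for the fibroblast markers, and their part in the differences of matrix genes was not tested. Of 7 leukocyte markers on the array, 6 were above background. Their list summed to 41.4 without TNF and 38.0 with TNF, of which Itgam alone made 35.1 and 32.4. Cd14 differed by 0.54, and Lyz2 by -1.42 with its spot in a patch. Ptprc (CD45), which defines leukocytes, was not well above background on either array. The same held for the endothelial genes Cdh5 and Tek, whereas Kdr and Pecam1 were above background, and for the muscle genes Myod1 and Myog, whereas Acta1 (1.83 and 1.71) was above it. All 3 adipocyte markers were above background, of which Fabp4 differed by 0.51, Adipoq by -0.35 and Plin1 by -0.60. Xist, at 0.719 and 0.755, and the Y-linked gene Ddx3y, at 1.31 and 1.30, were both above background on each array.

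By the limit used here more genes rose than fell, and the largest rises exceeded the largest falls. Which direction had more calls changed with the settings. Of 17023 genes measured outside patches, 62 rose (0.364%) and 38 fell (0.223%), and 51 of the rises and 25 of the falls have a RefSeq symbol. The largest rise was 32.4-fold, for Ccl2, and the largest fall 6.39-fold, for Ly6k. The median change over all these genes was 0.01. Except for Gbp2, the 10 largest named rises were genes of chemokines, acute-phase and complement proteins and a metalloproteinase. Of all members of the gene lists used here, Cfd was the only one that fell. Rises made up 62.0% of the calls, compared with 76.4% after quantile normalization and 91.7% after another background correction (normexp), which took away most of the falls. They made up 56.7% with the authors' value table, 50.9% and 52.8% with other patch rules, 51.0% at a limit of 1.5-fold, 39.4% with patch spots kept and 35.3% without the background filter, so that in the last of these settings, and with patch spots kept, falls outnumbered rises. A wider count, which takes any gene well above background on its brighter array and sets a dim partner at the background limit, gave 560 genes higher (2.39%) and 995 lower (4.25%) of 23406. In this count 450 of the higher genes and 862 of the lower genes had all their spots in patches, so the wider count is given for completeness and members from it are named only with that fact. In a bulk culture, a change in the share of a cell type and a change in RNA per cell cannot be told apart.

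**Figure D1:**
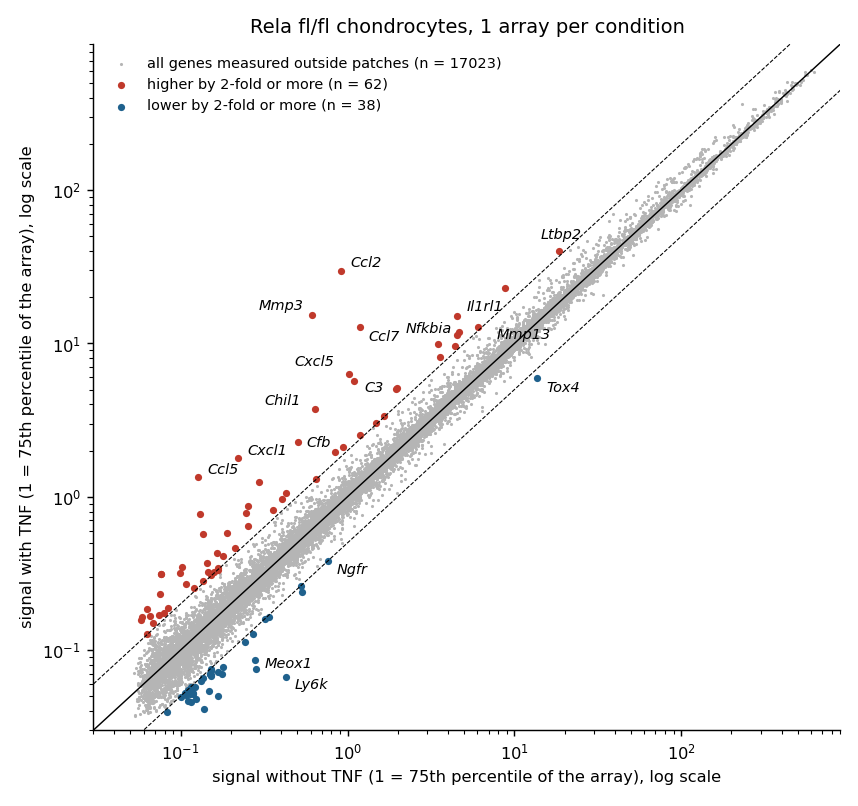
Signal of each gene without TNF (x axis) and with TNF (y axis) on log scales, where 1 is the 75th percentile of the array. Grey points are the 17023 genes measured outside patches, red points the 62 that rose and blue points the 38 that fell. The solid line marks equal signal and the dashed lines a 2-fold difference. The red points spread over the whole range of signal up to Ltbp2 at 39.9 with TNF, whereas all blue points except Tox4 sit below a signal of 1.

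Several genes of the pathway that TNF engages were themselves higher. Of 22 measured genes of the NF-κB pathway and its feedback inhibitors, 4 rose, none fell, 11 were higher by more than 2 technical spreads and the other 11 lay within them, with a list median of 0.28. Over all genes, 8.26% were higher and 7.92% lower by that mark. Tnfaip3, which encodes the ubiquitin-editing inhibitor A20, went from a signal of 0.254 to 0.874, a log2 difference of 1.78. Nfkbia encodes IκBα, the inhibitor that holds Rela in the cytoplasm, and went from 3.50 to 9.98 (1.51). Bcl3, an atypical nuclear member of the IκB family, went from 4.55 to 11.3 (1.31). Relb, a partner subunit of the non-canonical pathway, went from 1.49 to 3.02 (1.02), and its second probe differed by 1.06. Feedback inhibitors and the NF-κB subunit of the non-canonical arm thus made up the rises. Below the limit but over 2 spreads stood the IκB genes Nfkbiz (0.89) and Nfkbie (0.82), the TNF-induced gene Tnfaip2 (0.80) and the p100 subunit gene Nfkb2 (0.75). Rela itself went from 28.4 to 34.9 (0.30), and Nfkb1, its usual partner, differed by 0.15. Chuk, Ikbkb and Ikbkg, the kinases and the regulatory subunit of the complex that releases NF-κB from its inhibitors, differed by -0.02, 0.07 and -0.06. Rel was not well above background on either array.

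The promoters of these genes were read for the κB motif, the consensus that NF-κB dimers bind, here as the 10-base form known as GGGRNWYYCC. Windows from 250 bases before to 50 after the transcription start (RefSeq, GRCm38.p6) were searched on both strands. Of all 27025 promoters 5.14% held a match, and of 8858 promoters of genes measured here 6.15% did. Of the 51 named genes that rose, 38 had a promoter in the table and 10 of them (26.3%) held a match, while 0 of 16 such promoters of named genes that fell did. The 10 were Cxcl1, Chil1, Tnfaip3, Nkx1-2, Nfkbia, Casp4, Bcl3, Ip6k3, Car9 and Tlr2. The sequences that follow show 5 matches upstream of the start, from 2 inhibitors of the pathway, a chemokine, a receptor and a caspase that rose, 5′ to 3′ on the strand of the gene, with the match in capitals. A match is a description of the letters and not a measured binding site.
Nfkbia (chr12:55492648-55492706, minus strand): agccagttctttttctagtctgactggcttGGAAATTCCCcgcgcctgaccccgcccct
Tnfaip3 (chr10:19015411-19015452, minus strand): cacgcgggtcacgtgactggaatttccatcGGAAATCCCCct
Cxcl1 (chr5:90891144-90891213, plus strand): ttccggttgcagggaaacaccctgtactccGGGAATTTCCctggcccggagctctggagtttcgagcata
Tlr2 (chr3:83841742-83841811, minus strand): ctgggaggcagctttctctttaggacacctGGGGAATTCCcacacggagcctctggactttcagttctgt
Casp4 (chr9:5308726-5308795, plus strand): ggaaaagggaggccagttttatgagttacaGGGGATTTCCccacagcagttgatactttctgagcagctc
In Nfkbia the match starts 29 bases before the transcription start and in Tnfaip3 12 bases before it, in both cases read from the opposite strand. The Cxcl1 match starts 71 bases and the Tlr2 match 173 bases upstream. Each of the Cxcl1, Tlr2 and Casp4 matches overlaps a further match shifted by 1 base.

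Chemokines held 5 of the 6 largest rises among named genes measured on both arrays, Mmp3 being the other. These small secreted proteins draw leukocytes into tissue. Ccl2, which attracts monocytes, went from a signal of 0.92 to 29.8, a log2 difference of 5.02 read from 9 spots outside patches that each lay between 4.92 and 5.10. Ccl7, a close relative that also attracts monocytes, went from 1.18 to 12.9 (3.44), and Ccl5 (RANTES), which attracts T cells and monocytes, from 0.127 to 1.34 (3.39). Among the neutrophil attractants, Cxcl1 went from 0.221 to 1.78 (3.00) and Cxcl5 from 1.02 to 6.36 (2.64). Ppbp, another chemokine of that kind, went from 0.107 to 0.270 (1.33). The rises were limited to a few members. The CC list also holds the CX3C chemokine Cx3cl1. Of its 8 genes measured outside patches, 3 rose and 4 differed by more than 2 spreads, the fourth being Cx3cl1 (0.41), and of the 5 measured members of the CXC list, which does not hold Ppbp, 2 rose and 4 did so, all of them higher. Ccl9 stood at 2.20 and 2.25. Cxcl12, which retains stem and immune cells, had signals of 25.8 and 40.8 (0.66). Cxcl3 was well above background only with TNF, at 0.171, which gives at least 3.24-fold. Ccl17 (-2.06) and Cxcl10 (0.86) had their spots in patches. Ccl3, Ccl4, Ccl20, Cxcl2 and Cxcl9 were not well above background on either array.

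Of 26 listed cytokines, 11 were measured outside patches on both arrays. Of these none rose by the limit, 6 were higher by more than 2 spreads and 1 was lower, with a median of 0.32. Il6, the cytokine that drives the acute-phase response, was not well above background without TNF and had a signal of 0.389 with TNF, at least 7.37-fold higher, from 2 spots outside patches. Tnfsf11 (RANKL), which drives osteoclast formation, was above background only with TNF at 0.689 (at least 13.1-fold), but its spot lay in a patch. The decoy receptor of RANKL, Tnfrsf11b (osteoprotegerin), stood at 32.7 and 49.6 (0.60). Il1rn, the antagonist of interleukin-1, differed by 0.97 (0.453 and 0.887) and Il34, a ligand of the macrophage receptor Csf1r, by 0.64. Tslp was the only measured member of this list lower by more than 2 spreads, at 0.262 and 0.172 (-0.61). Tnf, Il1a, Il1b, Lif, Csf2 and Csf3 were not well above background on either array. Of 22 measured cytokine and Toll-like receptors, 3 rose, 13 were higher by more than 2 spreads and none was lower, with a median of 0.32. Il1rl1 (ST2), the receptor of interleukin-33, went from 4.56 to 15.1 (1.72), and a second probe differed by 1.43. Il13ra1, a receptor chain for interleukins 4 and 13, went from 0.120 to 0.253 (1.08). Tlr2, which senses bacterial lipoproteins, went from 1.66 to 3.36 (1.02), and its 7 usable spots differed by 0.96 to 1.12. Tnfrsf1a, the main TNF receptor, differed by 0.22.

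Acute-phase and antimicrobial proteins had the highest median of the 29 lists, 0.73. Of 11 measured members 4 rose and 9 were higher by more than 2 spreads. Chil1, a chitinase-like protein that chondrocytes secrete, went from 0.637 to 3.76 (2.56). Lcn2, which starves bacteria of iron by binding siderophores, went from 4.65 to 11.9 (1.36). Lbp, which presents lipopolysaccharide to its receptor, went from 0.847 to 1.97 (1.21), and Saa1, a serum amyloid A protein, from 3.59 to 8.12 (1.18). Saa3, a serum amyloid A gene made outside the liver, was not well above background without TNF and had a signal of 10.2 with TNF from a single spot outside patches. This gives at least 179-fold, the largest difference of any list member, with its dim side a bound. Serpina3f, a protease inhibitor, was at least 3.46-fold higher on the same terms. Hp, which encodes haptoglobin, stood at 2.11 and 14.5 (2.78) with its spot in a patch. S100a8, S100a9, Orm1 and Orm2 were not well above background. Members of the serum amyloid A and Serpina3 families are close in sequence, the probe sequences were not used here, and cross-hybridisation was not tested.

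Within complement, the genes of the alternative pathway moved apart. C3, the protein on which all complement pathways converge, went from 1.09 to 5.66 (2.37), and its other probe, read by 10 spots, went from 0.827 to 8.71 (3.40, spots between 3.32 and 3.50). Cfb, which forms the C3 convertase of the alternative pathway with C3b, went from 0.502 to 2.29 (2.19). Cfd, the protease that activates Cfb, fell from 0.525 to 0.262 (-1.01). C1s1, a protease of the classical pathway, stood at 5.20 and 8.45 (0.70). Of 13 measured complement genes, 2 rose, 1 fell and 7 lay within 2 spreads.

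Among proteases, 2 metalloproteinases rose. Mmp3 (stromelysin 1), which cleaves aggrecan and activates other metalloproteinases, went from a signal of 0.616 to 15.3, a log2 difference of 4.64 and the second largest of the rises. Mmp13 (collagenase 3), the main collagenase of type II collagen, went from 6.08 to 12.9 (1.09). Mmp2, Mmp14 and Mmp23 lay within 2 spreads at 0.04, 0.14 and -0.06. Mmp19 was higher by 2.52 with its spot in a patch. The aggrecanase gene Adamts5 had signals of 0.446 and 0.423 (-0.07), and Adamts4 differed by 0.47 with its spot in a patch. No member of the list of aggrecanases, ADAMTS proteins and TIMPs rose or fell outside patches. Adamts15 had a signal of 0.442 without TNF and was not well above background with it, at least 11.9-fold lower, with its spot in a patch. Outside patches, Adamts7 had the largest difference (0.0722 and 0.137, 0.93), at signals where 2 spreads amount to 0.66. Timp1, an inhibitor of metalloproteinases, stood at 128 and 187 (0.55), with its spot in a patch. In the plasminogen system, the receptor Plaur stood at 3.65 and 5.10 (0.49).

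Cartilage matrix genes tended to be lower, by small amounts. Of 21 measured outside patches, none rose or fell, 6 were lower by more than 2 spreads, 1 was higher and 14 lay within them, and the median was -0.19 against 0.01 for all genes. For signals over 1, however, 2 spreads amount to 0.16. Of the 14, Mia (-0.28), Matn4 (-0.24), Col9a3 (-0.23), Scrg1 (-0.23) and Col27a1 (-0.19) were that bright and lay beyond it, all downwards. The signals of Acan were 100 and 81.9 (-0.30). Hapln1, the link protein that fixes aggrecan to hyaluronan, had 25.8 and 19.2 (-0.43), and Matn1, a cartilage matrilin, 90.4 and 73.8 (-0.29). Otor had the largest difference downwards (0.660 and 0.355, -0.89). Col2a1 (0.03) and Comp (-0.02) lay within the technical spread. The exception upwards was Prg4 (lubricin), which lubricates the joint surface, at 5.65 and 10.8 (0.93). A second, much dimmer probe of Prg4 stood at 0.0748 and 0.0472 (-0.66), so its probes disagree. For the chondrocyte transcription factors, Sox9 stood at 14.2 and 13.6 (-0.06), and Hif1a was the highest at 0.46. Sox6 (-1.14) and Foxa2 (-1.81) had their spots in patches. A second, dimmer probe of Foxa2 outside patches stood at 0.205 and 0.111 (-0.88). Genes of hypertrophic and mineralizing chondrocytes had a median of -0.27, with 5 of 12 lower by more than 2 spreads and 2 higher. Lower were Ihh (0.202 and 0.114, -0.82), the signal that paces chondrocyte hypertrophy, its target Gli1 (0.174 and 0.0933, -0.90) and Panx3 (-0.65). Gli1 was dim enough that 2 spreads amount to 0.66. Ptch1 of the same list, as dim (0.141 and 0.116, -0.28), did not pass the mark of 0.28. Col10a1, the collagen of hypertrophic cartilage, differed by -0.18. Sp7 (osterix), a transcription factor of bone-forming cells, had a signal of 0.0785 without TNF and was not well above background with it, at least 2.11-fold lower, from a single spot outside patches. The exceptions were Spp1 (osteopontin), at 24.1 and 42.3 (0.81), and Vegfa (0.64). In the list of fibrillar collagens and fibroblast matrix 17 of 22 lay within 2 spreads, Col1a1 among them.

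**Figure D2:**
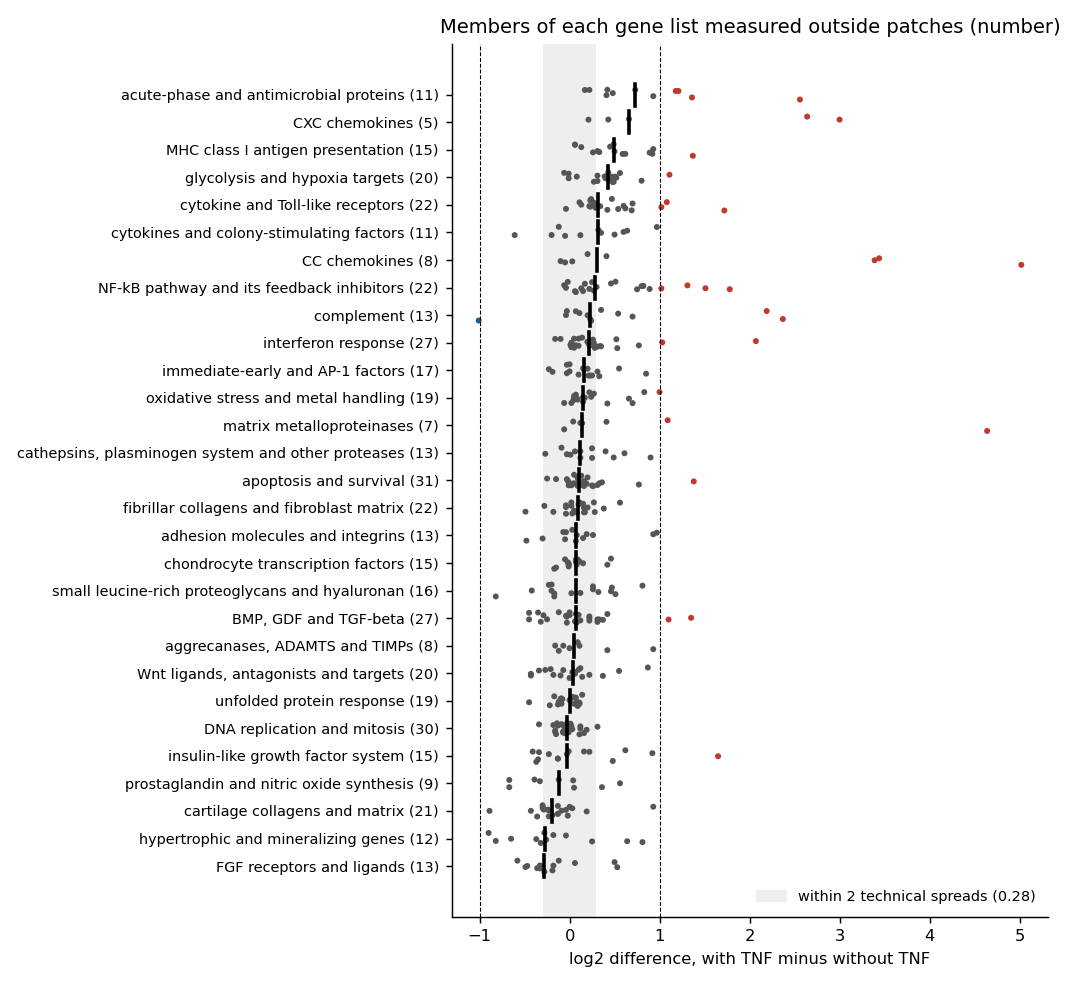
Log2 difference with TNF minus without TNF (x axis) of the members of the 29 gene lists (rows, ordered by median), for members well above background on both arrays and measured outside patches, whose number stands in brackets. Each point is a gene, red where it rose and blue where it fell, black ticks are list medians, the grey band marks 2 technical spreads and the dashed lines a 2-fold difference. Medians run from -0.28 for FGF receptors and ligands to 0.73 for acute-phase proteins, and Cfd is the only blue point.

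In the lists of antigen presentation and of glycolysis most measured genes were higher by more than 2 spreads, with 1 gene of each past the limit. Among 15 measured genes of MHC class I presentation, 1 rose, 11 were higher by more than 2 spreads and none was lower, with a median of 0.49. Psmb8, a catalytic subunit of the immunoproteasome, went from 0.165 to 0.427 (1.37). H2-K1, a class I heavy chain, differed by 0.92 (21.6 and 41.0), and its spots outside patches by 0.86 to 1.02. Class I heavy chain genes are close in sequence, and cross-hybridisation between them was not tested. Tapbp (tapasin), which loads peptides onto class I molecules, stood at 5.90 and 11.2 (0.93), and B2m, the light chain, at 47.3 and 64.5 (0.45). The genes of glycolysis and of the hypoxia response gave a similar picture. Of 20 measured, 1 rose and 15 were higher by more than 2 spreads, none was lower, and the median was 0.43. Car9, a carbonic anhydrase and hypoxia target, went from 4.43 to 9.56 (1.11). Adm (adrenomedullin) stood at 6.12 and 10.7 (0.80), and the glycolytic enzymes Pgk1 and Tpi1 differed by 0.49 and 0.48. With 1 culture per condition, a difference of this size between cultures cannot be told apart from one due to TNF.

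Interferon-response genes were less uniform. Of 27 measured, 2 rose, 8 were higher by more than 2 spreads and 19 lay within them, with a median of 0.22. Gbp2, a guanylate-binding GTPase, went from 0.296 to 1.25 (2.07) and Parp14 from 0.159 to 0.325 (1.03). Irf1, a transcription factor that NF-κB and interferon both induce, stood at 3.49 and 5.03 (0.53), whereas Isg15 (0.10) and Ifit3 (-0.16) lay within 2 spreads. Gbp5, Iigp1, Ifi44 and Oas2 passed the limit in the wider count, Gbp5 and Oas2 downwards and the others upwards, all with their spots in patches.

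Among growth factor systems, single genes rose. In the list of the insulin-like growth factor system 1 of 15 genes rose, 4 were higher and 4 lower by more than 2 spreads, and the median was -0.03. Igfbp3, which binds insulin-like growth factors, went from 0.248 to 0.781 (1.65), and Igfbp7 differed by 0.92. Igfbp2 was lower on both of its probes, by -0.75 in a patch and by -0.66 outside patches. Grem1, an antagonist of BMPs, stood at 30.9 and 33.1 (0.10). Ltbp2, a matrix protein of the family that binds latent TGF-β, went from 18.5 to 39.9 (1.1). The BMP target Id1 differed by -0.45. FGF genes had a median of -0.28 (-0.19 with patch spots kept), with 7 of 13 lower by more than 2 spreads. Fgfr3, the receptor that restrains chondrocyte proliferation, stood at 44.6 and 32.3 (-0.47). The ligands Fgf7 (0.50) and Fgf10 (0.53) were the 2 members higher by that mark. Of 20 Wnt genes 14 lay within 2 spreads. Rspo2, which amplifies Wnt signals, differed by 0.87.

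For the unfolded protein response 18 of 19 genes lay within 2 spreads, with Hspa5 at 0.01. For DNA replication and mitosis 28 of 30 did, with Mki67 at -0.07, and for apoptosis and survival 26 of 31. In the last list Casp4 (caspase-11), an inflammatory caspase, rose from 1.97 to 5.15 (1.38), and Bid, which links death receptors to mitochondria, differed by 0.77. Birc3, an inhibitor of apoptosis that binds TNF receptor complexes, had signals of 0.150 and 0.186 (0.31). Traf1 differed by 1.01 with its spot in a patch. In the list of prostaglandin and nitric oxide synthesis 2 of 9 genes were higher by more than 2 spreads, 4 were lower and 3 lay within them, with a median of -0.12. Ptgs2 (cyclooxygenase 2) stood at 0.488 and 0.735 (0.59), whereas Pla2g5 (-0.67) and Hpgd (-0.67) were lower. In oxidative stress and metal handling, Slc39a8, a zinc importer, rose from 0.167 to 0.335 (1.0), Sod3 differed by 0.83 and Mt2 by 0.66. The adhesion molecules Vcam1 and Icam1, which bind leukocyte integrins, differed by 0.97 and 0.93 and so stood just inside the limit. A second probe of Vcam1 differed by 1.5.

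Some of the large rises belonged to none of the lists. Cck, the gene of a gut and brain peptide hormone, went from 0.136 to 0.571 (2.07). U90926 went from 0.0765 to 0.315 (2.04) and Slfn2, a Schlafen family gene of lymphocytes, from 0.0756 to 0.232 (1.62). Klra1, a receptor of natural killer cells from a family of near-identical genes, went from 0.0758 to 0.313 (2.05). Nkx1-2, a homeobox gene, went from 0.102 to 0.346 (1.77) on its reported probe, but a second probe above background differed by 0.20. Ecscr, an endothelial membrane protein, went from 0.189 to 0.583 (1.62). The endothelial markers Kdr (18.2 and 17.9) and Pecam1 (0.158 and 0.153) were not higher with it. Chl1, an adhesion molecule of the L1 family, went from 0.425 to 1.05 (1.30), and its second probe differed by 1.25.

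The falls were mostly faint. The median signal of the 38 genes that fell was 0.15 without TNF and 0.0671 with TNF, against 0.234 and 0.801 for the 62 that rose. Among genes with a mean signal over 1 there were 23 rises and 1 fall, and among those under 0.1 there were 3 rises and 18 falls. The median change of all measured genes under 0.1 was -0.14, and their 5th percentile was -0.72. The filter reaches lower with TNF, where the lowest signal well above background was 0.0372, than without TNF, where it was 0.0527. Among the dimmest genes it can therefore admit a fall and leave out an equal rise. Its part in these values was not tested. The scatter of signals shows the same tilt at its lower end.

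**Figure D3:**
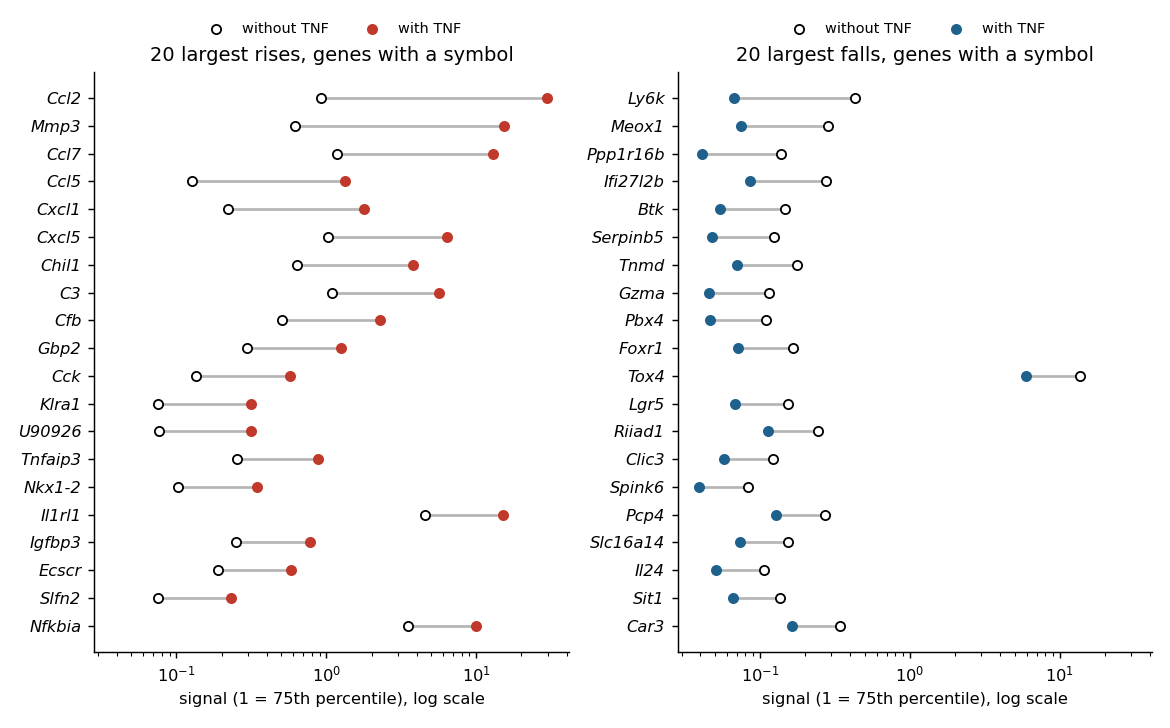
Signal without TNF (open circles) and with TNF (filled circles) on a log scale (x axis) for the 20 largest rises and the 20 largest falls among genes with a symbol. Most falls end between the background limit and a signal of 0.2, whereas the rises end between 0.232 for Slfn2 and 29.8 for Ccl2.

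Ly6k, a GPI-anchored protein of the Ly6 family, had the largest fall, from 0.428 to 0.0669 (-2.68), followed by the homeobox gene Meox1, from 0.283 to 0.0746 (-1.93). Among genes with a symbol, Ppp1r16b (-1.75), Ifi27l2b (-1.69) and the B-cell kinase gene Btk (-1.44) came next, all 3 from signals under 0.3. The other probe of Btk had its spot in a patch and was above background only with TNF. That probe went the other way, at 0.0112 and 0.0436 (1.95). Tnmd (tenomodulin), a marker of tendon cells, went from 0.176 to 0.0702 (-1.33), and its 8 spots outside patches differed by -1.73 to -1.01. Ngfr, the p75 neurotrophin receptor, went from 0.764 to 0.379 (-1.01), and its 10 spots differed by -1.29 to -0.88. Lgr5, a receptor for R-spondins, went from 0.153 to 0.0684 (-1.16). The smaller falls included Serpinb5, Gzma, Pbx4, Foxr1, Riiad1, Clic3, Spink6, Pcp4, Slc16a14, Il24, Sit1 and Car3, from -1.37 to -1.05. Tox4, which encodes a nuclear HMG-box protein, was the only fall with a signal over 1, from 13.7 to 5.98 (-1.19). A second probe of Tox4 stood at 1.65 and 1.71 (0.05), so its probes disagree.

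Probes and spots of the same gene gave the only replication within this comparison, and it is technical. Of 2439 genes with 2 or more usable probes, 4 had every such probe higher by at least 1 (C3, Il1rl1, Chl1 and Relb), none had every probe lower by as much, and 942 had probes of opposite sign. Of 260 usable probes with 10 spots, 3 passed the limit upwards (Ccl2, C3 and Tlr2) and 2 downwards (Ngfr and Tnmd). The median SD of the differences between spots of such a probe was 0.06. For Tnmd it was 0.26 and for Ngfr 0.12, against 0.06 for Ccl2.

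The arrays labelled cKO, which share no array with this comparison, were set beside it. Their cells had the same TNF treatment but another genotype label, so differences between the 2 pairs of arrays mix genotype, culture and array. On the named genes that rose, 44 of 51 were higher with TNF there too, 32 by more than 2 spreads, and 9 by at least 1. Restricted to the 44 genes above background outside patches on those arrays, 28 were higher by more than 2 spreads and 8 by at least 1. Of all 9881 named genes measured in both pairs, 10.3% were higher by more than 2 spreads and 0.425% by at least 1. Ccl2 had signals of 0.916 without and 8.23 with TNF on those arrays (3.17), Ccl5 had 0.0417 and 0.330 (2.98), and Mmp3 differed by 2.56. Cxcl1 (1.48), Cxcl5 (1.32), Il1rl1 (2.46), U90926 (1.56), Ecscr (1.28) and Lcn2 (1.18) also passed the limit, the last with its spot in a patch there. For another group the difference there was small. Chil1 differed by 0.15, C3 by 0.21, Gbp2 by 0.23, Cfb by 0.27 (in a patch there), Igfbp3 by 0.10 and Mmp13 by -0.12. Without TNF, Igfbp3 (0.514) and Mmp13 (12.5) stood higher there than in Rela fl/fl cells (0.248 and 6.08). Chil1 (0.244), C3 (0.788) and Cfb (0.209) stood lower there without TNF, and Gbp2 (0.302) was close to its 0.296 in Rela fl/fl cells. Saa3, at 0.00936 and 0.0164, and Il6 were not well above background on both of those arrays.

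The genes were chosen for a large difference in Rela fl/fl cells, which favours a smaller value anywhere else, so the median differences, 1.35 here and 0.35 there, are a description only. The median change of all 9881 genes there was 0.07. Of the 25 named genes that fell, 19 were lower there too and 2 by at least 1, Lgr5 (-1.31) and Clic3 (-1.99, in a patch there). By more than 2 spreads 10 were lower and 3 higher. Restricted to the 20 genes above background outside patches on those arrays, 16 were lower. Of these 20, 7 were lower and 1 higher by more than 2 spreads, and 1 was lower by at least 1. The share of all genes lower there by any amount was not counted. Over those 9881 genes, 0.101% were lower by at least 1 and 5.83% by more than 2 spreads. Ngfr (-0.04) and Tnmd (0.04) were close to 0 there.

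**Figure D4:**
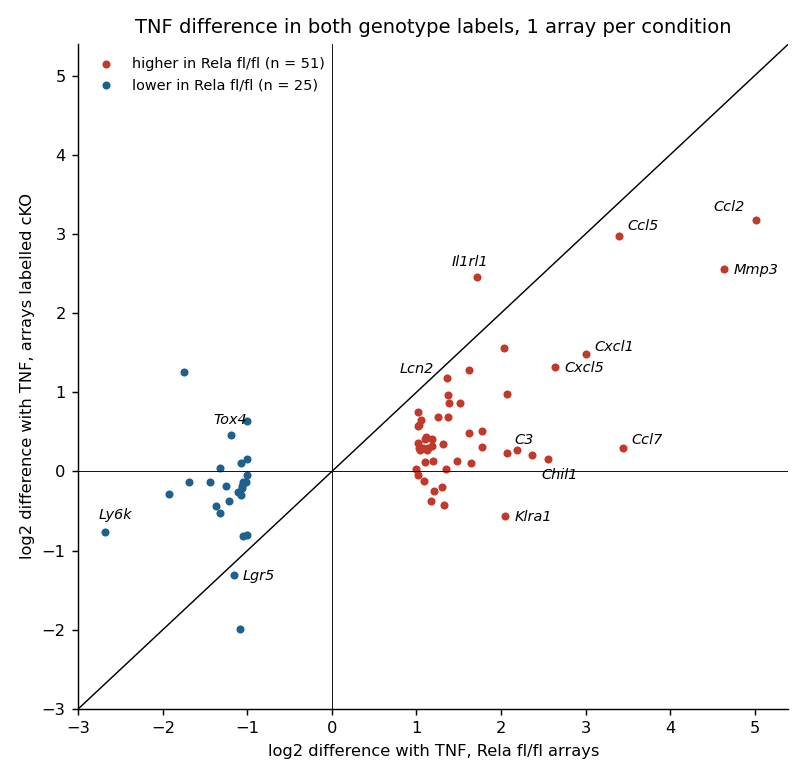
Log2 difference with TNF on the Rela fl/fl arrays (x axis) and on the arrays labelled cKO (y axis) for the 51 named genes that rose (red) and the 25 that fell (blue) in Rela fl/fl cells. The diagonal marks equal differences. Of the red points only Il1rl1 lies above the diagonal. The chemokines Ccl2 and Ccl5 reach 3.17 and 2.98 on the y axis. Ccl7 stands at 0.30 on this axis, but its spot lay in a patch there, so a smaller rise cannot be read from it.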

How the data were processed

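Labelled RNA of 4 cultures was hybridised to 4 one-colour Agilent SurePrint G3 mouse arrays on 1 slide, 1 per genotype label and treatment. The authors deposited spot intensity values from Agilent Feature Extraction 10.10.1.1, with background subtracted and outlier flags, and a table of intensity values that are a constant multiple of the processed intensity on each array (without TNF 1.83, with TNF 1.77). From the deposited intensity, log2 values were taken, outlier spots left out, and the 75th percentile of the array's transcript spots subtracted. A probe's spots were averaged, and each gene was read from its brightest probe by the 4-array mean. Of 55681 probes, 27202 were named through their accession from RefSeq (GRCm38.p6). The number of arrays limits precision, since no condition has a replicate.

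A spot was bright if at least 2-fold above each of the other 3 arrays (log2 values under -4.5 raised to it), and in a patch if at least 3 of the 54 others in 11 rows and 5 columns around it were bright. The technical spread came from probes with 10 spots (173 and 205 probes with all spots usable, without and with TNF). A bound sets the dim side at the lowest signal well above background of its array, or at its own signal where that was higher.

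The 29 lists (688 genes), the patch rule and the tests were chosen with earlier results of these data known. Named are the 20 largest rises and falls, list members past the limit, the 4 largest changes and the first gene of each list, genes with agreeing probes or 10 spots past the limit, and bounds in lists. Further list members, and the genes listed as not well above background, were chosen after their values were seen. The 13 alternatives cover scaling, background (normexp, offset 50, on the median spot intensity), probe choice, filter, limit, patches and symbols. The calls were tested on simulated data, where the patch rule left out part of the added changes. Python 3.11.15, numpy 2.4.6, pandas 2.3.3, R 4.3.3 and limma 3.58.1 were used. No genome coordinates of the array files were used. A few genes that the naming rule covers are not reported here.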

Additional observations from a re-analysis of the deposited data

Results flagged for a closer look

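For 6 named genes, all measured outside patches and well above background on all 4 arrays, the difference with TNF was over 2 technical spreads in one direction on the Rela fl/fl arrays and in the opposite direction on the arrays labelled cKO. With 1 array per condition these differences between the pairs of arrays were not tested. Given in that order, Klra1 differed by 2.05 and -0.56, Cxcl12 by 0.66 and -0.33, and Vcan, a proteoglycan of loose matrix, by 0.51 and -0.47. Tslp, an epithelial cytokine, differed by -0.61 and 3.06, and its signal on the cKO pair was 0.122 without and 1.02 with TNF. Tox4 differed by -1.19 and 0.46, and Tnc, which encodes tenascin C, by -0.49 and 0.56. The value of Klra1 on the cKO pair lies within the 0.66 to which 2 technical spreads amount at signals under 0.2. In Rela fl/fl cells the second probe of Tox4 differed by 0.05, and a second probe of Vcan by 0.16, so both genes have probes that disagree.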

How the results depend on the processing

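The alternatives gave 290 list medians, of which 284 stayed within the technical spread of the reported one. Without the background filter, 3 moved further and turned sign, to -0.05 for the CC chemokines (15 genes), -0.09 for the cytokines (22 genes) and -0.10 for the ADAMTS list, the median of the CXC chemokines was 0.39 and that of the acute-phase proteins 0.93, and with patch spots kept that of the CC chemokines was 0.12. Of 1676 changes of named genes, 1559 moved by less than the spread and 116 moved further, 82 of them with normexp. Btk turned to 0.26 as the mean of its probes. The counts depended on the processing, the falls most. Quantile normalization gave 21 falls. The normexp correction gave 33 rises and 3 falls, all among the 62 and 38, and 347 and 604 in the wider count. A limit of 1.5-fold gave 294 rises and 283 falls (wider 1017 and 1510) and a limit of 3-fold 21 and 5. No background filter gave 662 and 1213 (wider 1346 and 2361). With patch spots kept there were 208 rises and 320 falls, and with them left out everywhere the wider count was 110 and 133. Falls numbered 75 where a patch needed 6 bright neighbours and 78 where it needed 8 in a window of 17 rows and 7 columns, beside 84 and 81 rises. Among genes with a symbol there were 25 falls and the wider count was 259 and 456. The cause of these moves was not tested beyond what each setting leaves out or adds. No paired analysis was possible because each condition has 1 array, and for the same reason no replicate could be left out. Signals under 0.2, where the technical spread was 0.33, are the least certain.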
